A study of Mus musculus with 2 samples.

Results

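10 genes that encode proteases of the extracellular matrix and their inhibitors were followed through the marker-gated cell types of an intact and a fracture callus library. They are the matrix metalloproteinase genes *Mmp2*, *Mmp3*, *Mmp13* and *Mmp14*, the tissue inhibitor genes *Timp1*, *Timp2* and *Timp3*, the aggrecanase-type protease genes *Adamts1* and *Adamts5*, and the serpin gene *Serpine2*. The members were chosen by symbol from the 32285 genes of the count matrices, and all 10 had UMIs (unique molecular identifiers, each marking 1 captured transcript) in both libraries. Matrix metalloproteinases are zinc-dependent enzymes made as inactive proenzymes. MMP14 is tethered to the cell membrane and activates MMP2 in a complex that holds TIMP2, MMP13 is a collagenase of cartilage and bone, and MMP3 is a stromelysin with a broad range of substrates. TIMPs bind and block active metalloproteinases, ADAMTS1 and ADAMTS5 cleave proteoglycans such as versican and aggrecan, and protease nexin 1, the product of *Serpine2*, blocks thrombin and plasminogen activators.

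Cells came from mice of the genotype Clec3b.creERT2; Ai14.R26.tdTomato, which both libraries share. The creERT2 sequence is a knock-in at the *Clec3b* locus, so that tamoxifen, given before the surgery, permanently marks *Clec3b*-expressing cells and their descendants with tdTomato. Stabilized fractures of the right femur were made at 6 weeks of age, and calluses, or intact femoral diaphyses with their muscle, were taken 3 weeks later from 3 littermates, pooled, digested with collagenase, sorted for tdTomato and run as 1 10x 3′ library each. There are thus no replicates, no test between the libraries was possible, mice cannot be told apart, and all intervals below are 95% intervals that cover counting error only.

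Cells with 500 or more genes, of whose UMIs no more than 10% were mitochondrial, were used. They were 1207 of 1872 intact and 3295 of 3987 callus cells, with medians of 4939 and 6843 UMIs. Only 1 barcode was shared by the kept cells of both libraries. The labels give the sex as male, whereas *Xist*, the RNA of the inactive X, was found in 89.5% of the intact and 94.7% of the callus fibroblasts, and 4 Y-linked genes together had 1 and 0 UMIs over all kept cells. The sort also held blood cells, which made up 55.8% of intact and 70.3% of callus cells. *Clec3b* itself was at 1474 and 1306 CPM (UMIs of a gene scaled to a common total of UMIs per cell type) in intact and callus fibroblasts and at 1.12 and 1.15 CPM in B cells. Cells that passed the gates of 2 unlike types, 11 intact and 100 callus, were set aside as possible doublets.

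Fibroblasts, defined by at least 5 of 8 marker genes, numbered 285 in the intact and 208 in the callus library. Near this limit, 5 intact and 16 callus cells carried 4 of the markers and 2 and 25 cells carried 5. Of the fibroblasts, 204 and 119 were *Pi16*-type (at least 4 of 6 markers of *Pi16*-positive adventitial fibroblasts), 42 and 25 were *Col15a1*-type (at least 3 of 5 markers), 4 and 23 were tendon-like and 35 and 41 fitted no list. Cells with markers of *Lepr*-positive bone marrow stromal cells (BMSC-like, 37 cells) and of mature osteoblasts (osteoblast-like, 27 cells) came from the callus, apart from 1 intact osteoblast-like cell. *Clec3b* was nearly absent from both, with 1 UMI in the BMSC-like and 1 in the callus osteoblast-like cells.

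The promoters of the 3 members whose callus and intact levels lay furthest apart in fibroblasts are shown first. Each window runs from 250 bases before to 50 bases after the RefSeq start of the gene (GRCm38.p6, all on the + strand), at chr9:7445572-7445871 for *Mmp3*, chr9:7272264-7272563 for *Mmp13* and chrX:20869916-20870215 for *Timp1*. Capitals mark an AP-1 motif (TGANTCA) and a TATA box (TATAAA) in *Mmp3* and *Mmp13*, a RUNX motif (TGTGGT, here on the opposite strand) in *Mmp13* and a GC box (GGGCGG, here on the opposite strand) in *Timp1*.
Mmp3: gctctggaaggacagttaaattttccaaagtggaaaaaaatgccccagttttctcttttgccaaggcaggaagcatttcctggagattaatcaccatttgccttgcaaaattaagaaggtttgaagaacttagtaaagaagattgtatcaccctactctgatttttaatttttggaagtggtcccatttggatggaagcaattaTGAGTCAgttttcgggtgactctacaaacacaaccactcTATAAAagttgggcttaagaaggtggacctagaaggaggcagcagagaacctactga
Mmp13: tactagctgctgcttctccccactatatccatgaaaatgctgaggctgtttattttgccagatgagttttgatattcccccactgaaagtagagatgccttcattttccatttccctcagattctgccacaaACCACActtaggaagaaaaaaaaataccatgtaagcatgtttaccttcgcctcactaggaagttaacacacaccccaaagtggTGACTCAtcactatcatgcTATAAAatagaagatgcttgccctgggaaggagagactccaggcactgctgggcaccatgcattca
Timp1: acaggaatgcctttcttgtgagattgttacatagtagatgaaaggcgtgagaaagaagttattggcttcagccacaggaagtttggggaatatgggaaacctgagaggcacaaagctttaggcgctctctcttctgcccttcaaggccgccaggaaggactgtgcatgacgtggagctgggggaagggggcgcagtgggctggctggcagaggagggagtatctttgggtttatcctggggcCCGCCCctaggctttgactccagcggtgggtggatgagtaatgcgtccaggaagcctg

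The AP-1 motif begins 46 bases before the start of *Mmp3* and 35 bases before that of *Mmp13*, and the TATA box begins 7 and 16 bases before it. Of the 32851 windows in the table, 7.81% hold the AP-1 motif, 13.6% the TATA box and 1.54% both, on either strand. Windows were found for 8 of the 10 members. *Mmp3* and *Mmp13* were the 2 members with an AP-1 motif, and *Adamts1* was the third with a TATA box, which begins 32 bases before its start. The GC box, found in 35.7% of all windows, is 8 bases before the start of *Timp1*, and the RUNX motif, found in 16.8%, is 118 bases before that of *Mmp13*. GC boxes were also found for *Adamts1*, *Mmp14*, *Serpine2*, *Timp2* and *Timp3*, and a RUNX motif for *Mmp14*. An ETS motif (AGGAAG), not marked above and found in 35.4% of all windows, was in those of *Mmp3*, *Mmp13*, *Mmp14*, *Serpine2*, *Timp1* and *Timp3*. Such matches describe letters only, and no binding was measured here.

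In the GENCODE vM21 annotation of GRCm38, *Mmp2* lies at chr8:92827291-92853420, *Mmp3* at chr9:7445822-7455975, *Mmp13* at chr9:7272514-7283331 and *Mmp14* at chr14:54431612-54445364, all on the + strand. *Timp1* lies at chrX:20870166-20874735 and *Timp3* at chr10:86300372-86349506 on the + strand, and *Timp2* at chr11:118301069-118355740 on the - strand. *Adamts1* (chr16:85793827-85803113), *Adamts5* (chr16:85856173-85901828) and *Serpine2* (chr1:79794197-79861180) are on the - strand. *Timp1* and *Timp3* overlap the antisense genes *Syn1* and *Syn3*, and *Timp2* overlaps *Cep295nl* on its own strand. Their fibroblast UMIs were few beside those of the members, at 2 and 3 for *Syn1*, 122 and 21 for *Syn3* and 11 and 8 for *Cep295nl* in the intact and callus libraries, and whether counting used the strand is not given in the sources used here.

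The members were chosen as genes of the stroma, with earlier results of these data known. Their counts against blood cells thus in part restate that choice and are a description. In the intact library 9 of 9 members with enough UMIs (at least 20 over both groups) were at least 2-fold higher in fibroblasts than in blood cells, against 30.8% of all genes tested. In the callus library it was 10 of 10, against 26.3%, and no member was at least 2-fold lower, against 20.5% and 21.9%. Without the top cell per member and group these counts were 8, without *Timp1*, and 9, without *Mmp13*, and without the highest Scrublet scores the callus count was 9, again without *Mmp13*. *Mmp2* was at 741 CPM in intact fibroblasts and 1.38 CPM in intact blood cells, a 535-fold difference (245 to 1461), and no *Mmp3* UMI was found in any of the 674 intact or 2315 callus blood cells. Of the members with at least 20 UMIs and with UMIs in blood cells, *Timp2* and *Serpine2* had the smallest ratios, with 25.6-fold (23.2 to 28.2) and 13.4-fold (9.24 to 19.97) in the intact library and 58.4-fold and 7.22-fold in the callus.

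**Figure D1:**
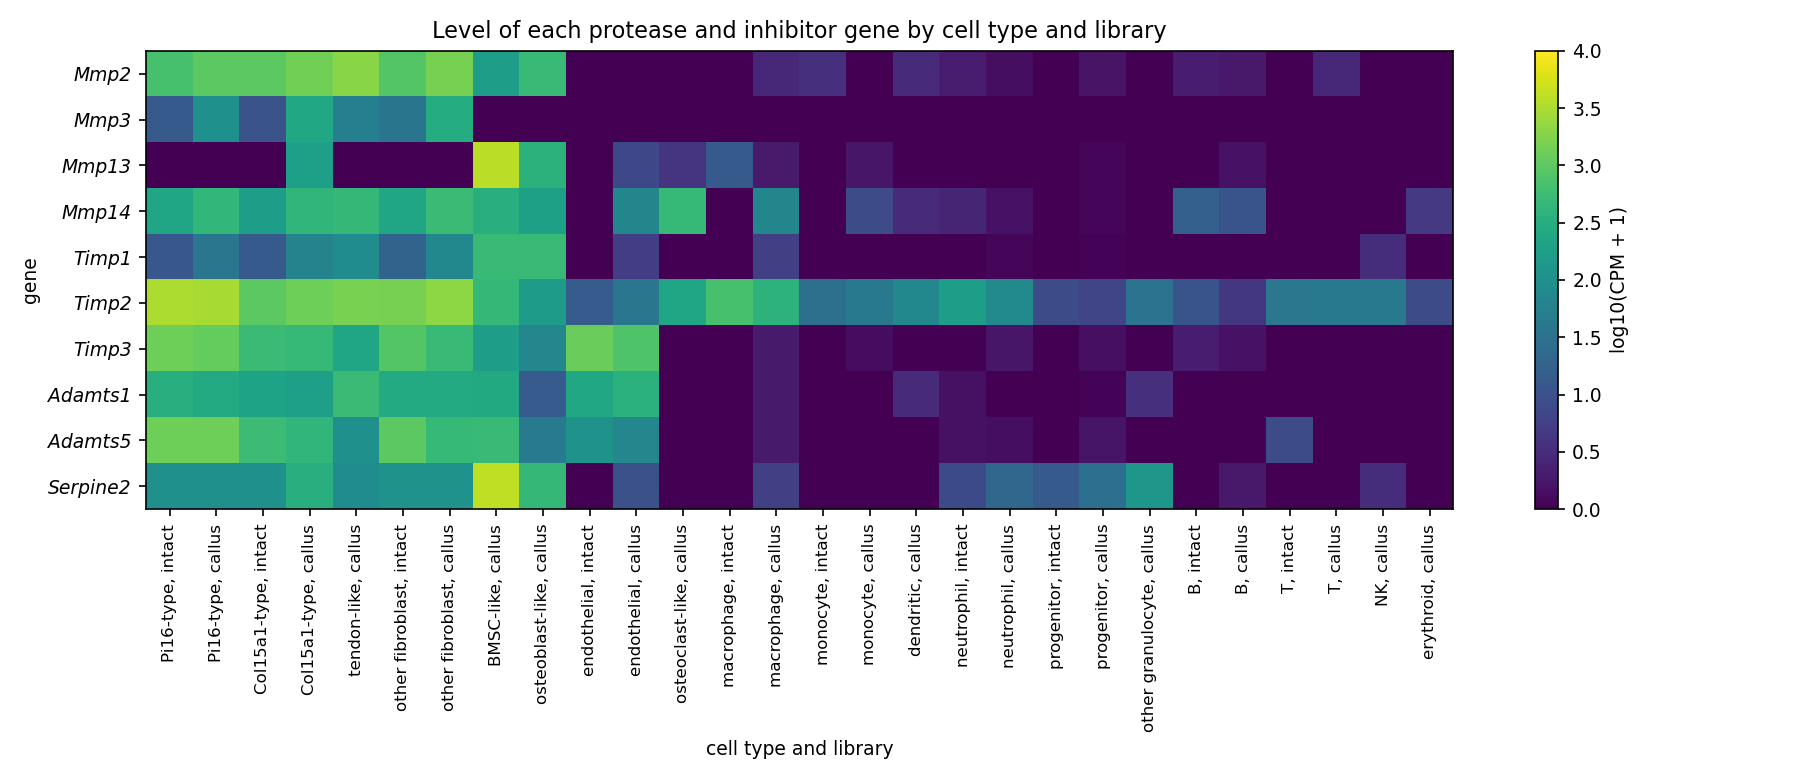
Level of the 10 genes as log10(CPM + 1), on a colour scale from 0 to 4, in each cell type and library. The 4 fibroblast types on the left are the brightest columns for most genes, *Mmp13* and *Serpine2* peak in the BMSC-like cells, and *Timp2* is the gene with the most signal among the blood cells on the right.

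After thinning to 2000 UMIs, fibroblasts carried a median of 4 of the 10 genes in both libraries, and 1 of 262 intact and 0 of 195 callus fibroblasts carried none. *Mmp2* was found in 93.3% of intact and 96.2% of callus fibroblasts, or 72.5% and 85.1% after thinning. The background level of free RNA can be read from B cells, where *Mmp2* was found in 0.417% and 0.558% of cells at median depths of 2928 and 3369 UMIs, against 7457 and 7850.5 UMIs in fibroblasts.

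Among the metalloproteinases, *Mmp3*, *Mmp13* and *Mmp14* were at least 2-fold higher in callus than in intact fibroblasts, as was the inhibitor gene *Timp1*. The 4 of 10 members compare with 4.53% of the 9991 genes tested, and 0 of 10 were at least 2-fold lower, against 2.82%. The median log2 ratio was 0.57 for the members and 0.03 for all genes. The members were chosen with earlier results of these data known, so these counts are a description.

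*Mmp2*, the gelatinase gene, had 741 CPM (704 to 780) in the intact fibroblasts against 1290.5 CPM (1237 to 1345) in those of the callus, a ratio of 1.74 (1.63 to 1.86). The *Mmp2* ratio was 1.48 (1.35 to 1.61) within the *Pi16*-type and 1.40 (1.19 to 1.65) within the *Col15a1*-type. *Mmp14*, whose product activates MMP2, was at 220 CPM (200 to 241) and 461 CPM (429 to 494), a ratio of 2.10 (1.86 to 2.36). The intervals of the libraries did not overlap for either gene. The *Mmp14* ratio lies next to the 2-fold limit, and within *Pi16*-type fibroblasts it was 1.92 (1.66 to 2.22), from 231 to 442 CPM. Thinned cells that carried *Mmp2*, *Mmp14* and *Timp2* together, the 3 genes of the activation complex, made up 25.6% (20.4 to 31.3) of intact and 42.6% (35.5 to 49.8) of callus fibroblasts. In B cells and neutrophils of either library no thinned cell carried all 3.

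*Mmp3* had 13.8 CPM (9.17 to 19.9) in the intact fibroblasts against 142 CPM (125 to 162) in those of the callus, a ratio of 10.3 (6.97 to 15.9). It was carried by 15 of 285 and 45 of 208 cells, or 2.67% and 10.8% of thinned cells, while B cells and neutrophils of both libraries had 0 UMIs. The higher level was not spread evenly over cells. In the *Pi16*-type, where *Mmp3* was at 12.6 and 101 CPM (ratio 8.0, 4.85 to 13.9), 1 callus cell held 31 of the 93 UMIs (ratio without it 5.41, 3.19 to 9.59), and among callus fibroblasts that fitted no list 1 cell held 47 of 85. *Mmp3* had 0 UMIs in BMSC-like, osteoblast-like, endothelial and osteoclast-like cells. In the 97 callus endothelial cells this allows up to 6.49 CPM and in the BMSC-like cells up to 11.0 CPM.

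*Mmp13* in fibroblasts came from a single cell. Intact fibroblasts had 0 UMIs, which allows up to 1.48 CPM, and callus fibroblasts had 39 UMIs (22.8 CPM, 16.2 to 31.1), at least 15.4-fold higher, but all 39 were in 1 *Col15a1*-type cell. This cell had 21921 UMIs, the 4th deepest of the 208 callus fibroblasts. It was among the cells removed when those with the highest Scrublet doublet scores were left out. Of the marker lists it carried 8 of 8 fibroblast, 3 neutrophil and 0 osteoblast markers, and 1 each of the BMSC, chondrocyte and endothelial markers. Outside these lists the cell had 47 *Spp1* and 364 *Col1a1* UMIs. It also held 38 of 51 *Mmp3*, 12 of 13 *Timp1*, 41 of 93 *Mmp14* and 28 of 71 *Serpine2* UMIs of the callus *Col15a1*-type. Without it, *Mmp13* was at 0 in the fibroblasts of both libraries and 3 of the 10 members stayed at least 2-fold higher in the callus, with ratios of 8.83 (5.93 to 13.6) for *Mmp3*, 2.01 (1.79 to 2.27) for *Mmp14* and 3.89 (2.46 to 6.36) for *Timp1*. No share of all genes stands beside this count.

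Of the inhibitors, *Timp1* had 12.3 CPM (7.97 to 18.2) in the intact fibroblasts against 54.3 CPM (43.8 to 66.5) in those of the callus, a ratio of 4.41 (2.81 to 7.16). It was carried by 6.67% and 22.1% of cells, or 1.15% and 9.23% of thinned cells, and had 0 UMIs in B cells. *Timp2*, the most abundant member in fibroblasts, was at 2701 CPM (2630 to 2773) and 2393.5 CPM (2321 to 2468), a ratio of 0.886 (0.851 to 0.923). *Timp3*, whose product binds to the matrix and also blocks ADAMTS enzymes, was at 1166 CPM (1119 to 1213) and 785 CPM (744 to 828), a ratio of 0.674 (0.630 to 0.721). The inhibitor genes thus differed in direction between the libraries, with *Timp1* past 2-fold from a low level and the other two slightly below 1. Within the *Pi16*-type the ratios were 3.27 (1.78 to 6.24) for *Timp1*, 0.938 (0.895 to 0.983) for *Timp2* and 0.848 (0.786 to 0.915) for *Timp3*.

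The ADAMTS genes and *Serpine2* stayed within 2-fold. *Adamts1* was at 308 CPM (284 to 333) and 311 CPM (285 to 339) in the intact and callus fibroblasts, with overlapping intervals. *Adamts5* was at 1132 CPM (1086 to 1179) and 844 CPM (801 to 889), a ratio of 0.746 (0.698 to 0.797). In the *Pi16*-type, however, *Adamts5* was at 1286 CPM (1229 to 1344) and 1285 CPM (1213 to 1361), a ratio of 1.00 (0.929 to 1.08). That type made up 204 of 285 intact but 119 of 208 callus fibroblasts. In the other types *Adamts5* was lower in the callus. It was at 551 and 425 CPM in the *Col15a1*-type (ratio 0.771, 0.591 to 0.998) and at 991 and 478 CPM in fibroblasts that fitted no list. The 4 intact and 23 callus tendon-like cells had 330 and 101 CPM. The part of the mix of types in the fibroblast ratio was not tested. *Serpine2* was at 102 CPM (88.5 to 117) and 129 CPM (113 to 147), a ratio of 1.27 (1.04 to 1.54) that was 1.12 (0.915 to 1.37) without the cell with *Mmp13* and 0.991 (0.759 to 1.29) within the *Pi16*-type. In that type 2 of 9 members, *Mmp3* and *Timp1*, were at least 2-fold higher in the callus, against 3.24% of genes, and 0 were lower, against 2.82%.

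**Figure D2:**
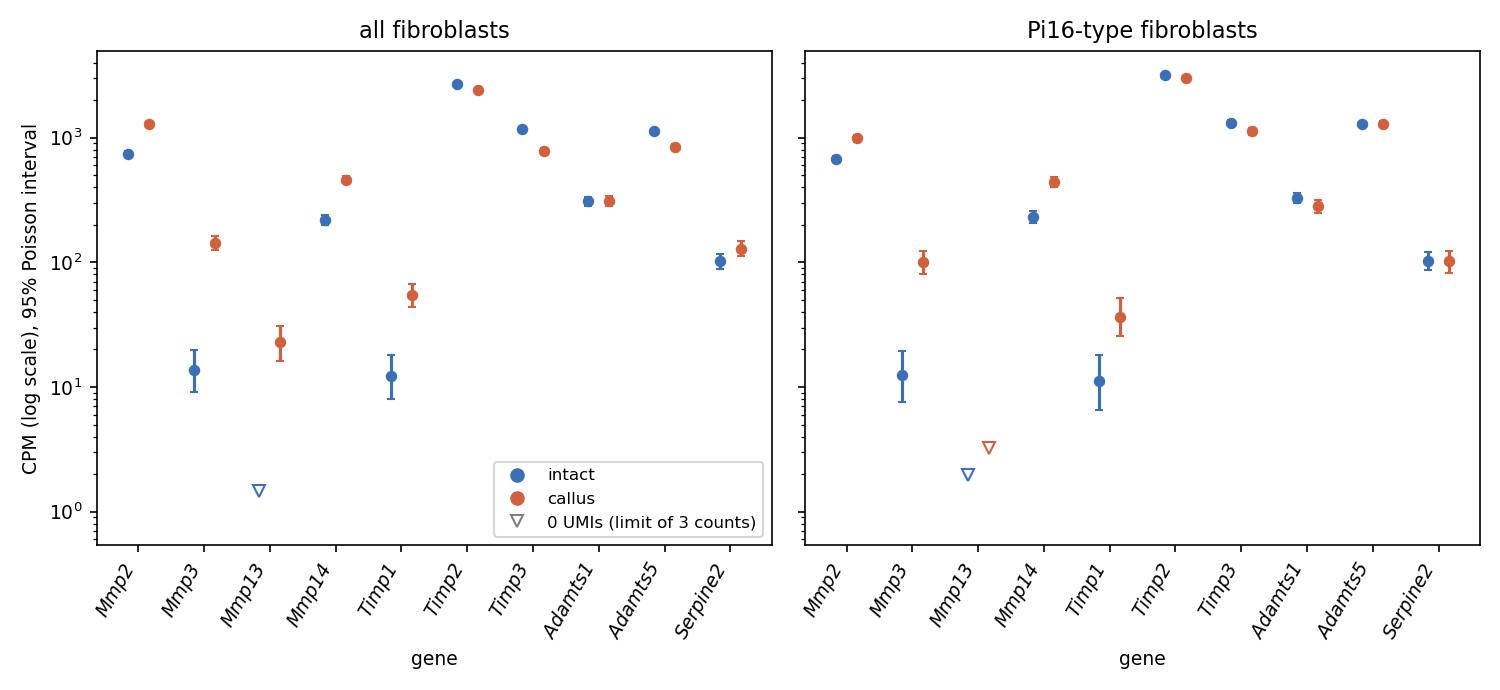
CPM on a log axis with 95% Poisson intervals for each gene in intact (blue) and callus (orange) fibroblasts, all together on the left and *Pi16*-type on the right, where open triangles mark 0 UMIs at the limit of 3 counts. *Mmp3*, *Mmp14* and *Timp1* lie higher in the callus in both panels, while *Adamts5* lies at 1286 and 1285 CPM in the *Pi16*-type.

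The summed UMIs of the 4 metalloproteinase and 3 TIMP genes can be set against each other, since each UMI of this 3′ assay stands for 1 transcript whatever its length. TIMP genes made up 79.9% (79.1 to 80.7) of them in intact and 62.8% (61.8 to 63.8) in callus fibroblasts. The share was lower in the callus in each fibroblast type, at 83.2% and 73.0% in the *Pi16*-type, 56.7% and 45.3% in the *Col15a1*-type and 68.2% and 52.8% in fibroblasts that fitted no list. The callus *Col15a1*-type includes the single cell with *Mmp13*. Of the 480 metalloproteinase UMIs there, this cell held 37 of *Mmp2*, 38 of *Mmp3*, 39 of *Mmp13* and 41 of *Mmp14*. Of the 398 TIMP UMIs it held 12 of *Timp1*, 47 of *Timp2* and 2 of *Timp3*. The share without this cell was not computed. As gated, the TIMP share was 43.2% in callus tendon-like, 41.3% in osteoblast-like and 20.7% (18.6 to 22.8) in BMSC-like cells, but 91.9% (88.9 to 94.4) in callus endothelial cells. Of the 637 metalloproteinase UMIs in osteoblast-like cells, 208 were *Mmp13* UMIs of 1 cell. In BMSC-like cells 1066 of the 1202 were *Mmp13*, so the low share there is largely that of 1 gene. Shares without *Mmp13* were not computed.

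**Figure D3:**
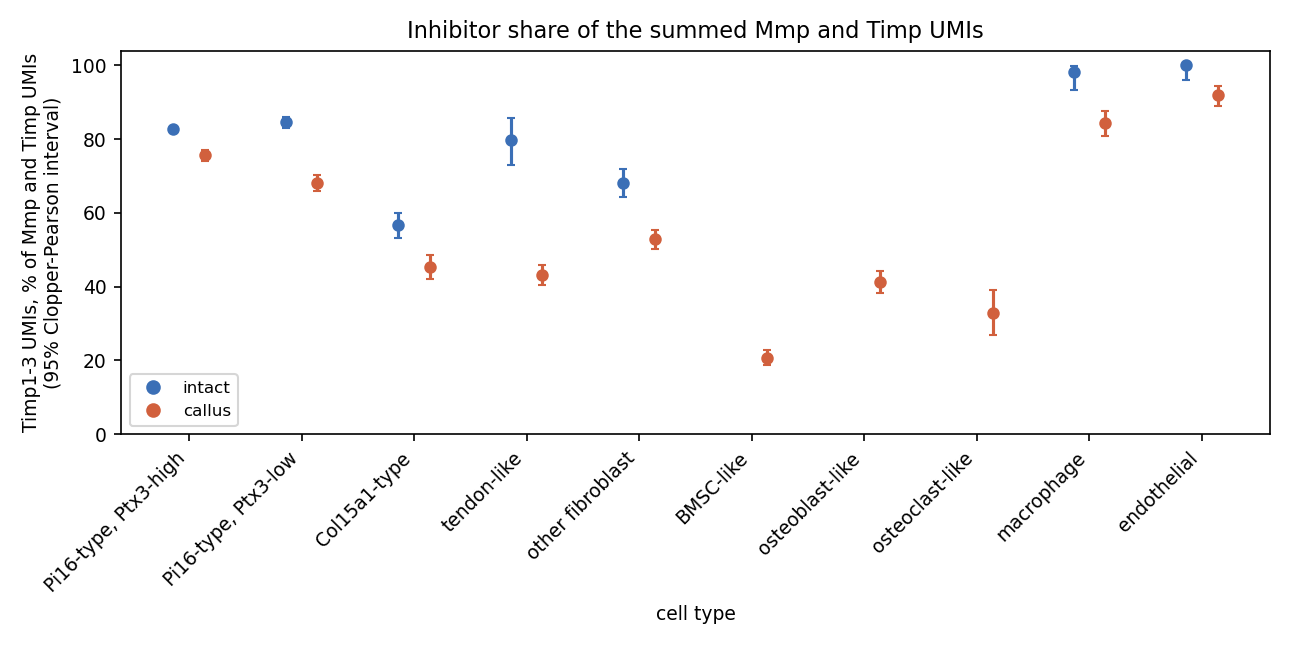
Share of TIMP UMIs among the summed metalloproteinase and TIMP UMIs, in percent with 95% Clopper-Pearson intervals, for stromal cell types, osteoclast-like cells and macrophages of the intact (blue) and callus (orange) libraries. The callus point lies below the intact point in each type with both, and BMSC-like cells have the lowest share at 20.7%. The callus *Col15a1*-type point includes the single cell with *Mmp13*.

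*Col15a1*- and *Pi16*-type fibroblasts differed in the abundant inhibitors and *Adamts5*. In the intact library 0 of 9 members were at least 2-fold higher in *Col15a1*- than in *Pi16*-type cells (8.17% of all genes) and 3 were at least 2-fold lower (12.2%). These were *Timp2* at 993 against 3197 CPM (ratio 0.310, 0.276 to 0.348), *Timp3* at 523 against 1323 CPM (0.395, 0.336 to 0.464) and *Adamts5* at 551 against 1286 CPM (0.429, 0.365 to 0.501). In the callus the same 3 genes were lower in the *Col15a1*-type, with ratios of 0.442, 0.420 and 0.331, against 9.86% of genes. *Mmp3*, *Mmp13* and *Serpine2* were higher there, 3 of 10 members against 8.11% of genes. The *Mmp3* and *Mmp13* calls ended without the single cell described above, while *Serpine2*, at 332 against 102 CPM (ratio 3.26, 2.36 to 4.49), stayed past 2-fold at 224 CPM, but not when Leiden clusters replaced the gates. *Timp1*, within 2-fold as gated, was at least 2-fold lower in the *Col15a1*-type without that cell, with 1 UMI left, and at least 2-fold higher under Leiden clusters. The Leiden cluster named *Col15a1*-type held 178 cells of both libraries, of which 36.5% passed that gate. It held 82 intact and 96 callus cells, where 42 and 25 cells passed the gate. The cluster is thus a wider set, and most of its cells lie outside the gate.

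Between the libraries, 4 of 9 members were at least 2-fold higher in callus than in intact *Col15a1*-type cells, against 8.55% of genes, and 0 were lower, against 5.30%. They were *Mmp3*, *Mmp13*, *Mmp14* (434 against 170 CPM, ratio 2.55) and *Serpine2* (332 against 101 CPM, ratio 3.29). Without the single cell, *Mmp14* was at 1.59 (1.07 to 2.37) and *Serpine2* at 2.22 (1.37 to 3.62), while *Mmp3* was at 7.15 (1.97 to 39.1) on 13 UMIs. *Timp1* there went from a ratio of 4.82 to 0.413 (0.00838 to 4.17), on 1 remaining UMI.

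*Pi16*-type cells that carried at least 2 of *Ptx3*, *Has1* and *Tnfaip6* (*Ptx3*-high, 133 intact and 66 callus cells) differed from the rest in *Adamts1*. It was at 404 CPM (368 to 443) in *Ptx3*-high and 114 CPM (82.8 to 153) in *Ptx3*-low cells of the intact library, a ratio of 3.55 (2.60 to 4.95). In the callus it was at 356 and 157 CPM, a ratio of 2.26 (1.67 to 3.11). *Adamts1* was the 1 of 7 intact members (6.05% of genes) and the 1 of 9 callus members (4.56%) at least 2-fold higher, and 0 were lower, against 2.79% and 3.11%. The summed level of the dissociation-responsive list, with 17 of 17 genes detected, was also higher. It was at 24737 against 12623 CPM in the intact and 23952 against 12332 CPM in the callus library. Of the 17 genes, 9 were at least 2-fold higher in the intact and 11 in the callus library, and 0 were lower. The summed inflammatory list was higher as well, at 5394 against 1336 CPM and 4101 against 1557 CPM. At least 2-fold higher were 12 of its 14 genes in the intact and 9 of 13 tested in the callus library, where *Il1r1* was lower. The *Ptx3*-high cells were deeper, with medians of 8505 against 4911 and 9061 against 6188 UMIs. The neutrophil list was at 969 CPM in *Ptx3*-high and 228 CPM in *Ptx3*-low intact cells, with 7 and 5 of its 8 genes detected, and at 311 and 300.3 CPM in the callus. The part of dissociation, of neutrophil RNA and of depth in the *Adamts1* difference was not tested. After thinning, *Adamts1* was carried by 48.1% of *Ptx3*-high and 21.0% of *Ptx3*-low intact cells.

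The 23 callus tendon-like cells had the highest *Mmp2* (1932 CPM, 1775 to 2100) and *Adamts1* (534 CPM, 452 to 625) of all cell types with at least 20 cells. *Timp1* was at 87.2 CPM against 36.8 CPM in callus *Pi16*-type cells, a ratio of 2.37 (1.36 to 4.09). *Timp3* (227 CPM, ratio 0.202, 0.155 to 0.260) and *Adamts5* (101 CPM, ratio 0.0787, 0.0525 to 0.114) were lower. Of 9 members 1 was thus higher and 2 were lower, against 7.45% and 15.5% of genes. However, 1 cell held 13 of the 25 *Timp1* UMIs. Without it *Timp1* was at 47.6 CPM, a ratio of 1.29 (0.610 to 2.56), and the members past 2-fold were *Mmp2* (2.17, 1.95 to 2.42) and *Adamts1* (2.11, 1.71 to 2.59), which were higher, and *Timp3*, *Adamts5* and *Serpine2* (0.351, 0.156 to 0.695), which were lower. Markers of other skeletal cells were also found in a few tendon-like cells. Over the type, 4 of 6 osteoblast genes had a summed 701 CPM and 3 of 7 chondrocyte genes 213 CPM. In the callus *Pi16*-type these sums were 2.16 and 5.41 CPM. The cell with 13 *Timp1* UMIs carried 2 osteoblast markers, a few others carried 1 and most carried 0. Of the 61 UMIs of chondrocyte genes, 52 were *Acan* in 1 cell. The part of such cells in these differences was not tested.

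BMSC-like cells had another set of these genes. *Mmp13* was at 3916 CPM (3684 to 4158) and was carried by 27 of 37 cells, against 1 of 208 callus fibroblasts. *Serpine2* was at 4070 CPM (3834 to 4317) in 36 of 37 cells, a ratio of 31.5 (27.3 to 36.6) over callus fibroblasts. *Timp1* was at 514 CPM (433 to 607), a ratio of 9.47 (7.23 to 12.4). These 3 of 10 members were at least 2-fold higher than in callus fibroblasts, against 14.9% of genes, and 4 were lower, against 14.6%. The lower ones were *Mmp2* (165 CPM, ratio 0.128), *Timp2* (466 CPM, 0.195), *Timp3* (169 CPM, 0.215) and *Mmp3*, which was at least 12.9-fold lower.

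Across single BMSC-like cells *Mmp13* ran from 0 to 16538 CPM with a median of 1963 CPM, and 21 of 37 cells were over 1000 CPM. *Serpine2* ran from 0 to 12443 CPM with a median of 2039 CPM, and 30 cells were over 1000 CPM, against 2 of 208 callus fibroblasts. Both genes together were found in 25 of 35 thinned BMSC-like cells (71.4%, 53.7 to 85.4), and in 0 of 262 intact and 0 of 195 callus fibroblasts. Many cells thus carried both genes, unlike *Mmp13* in fibroblasts, but the summed levels were uneven. The 8 cells with at least 3 osteoblast markers, described below, held 552 *Mmp13* and 766 *Serpine2* UMIs. The other 29 cells held 514 and 342.

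**Figure D4:**
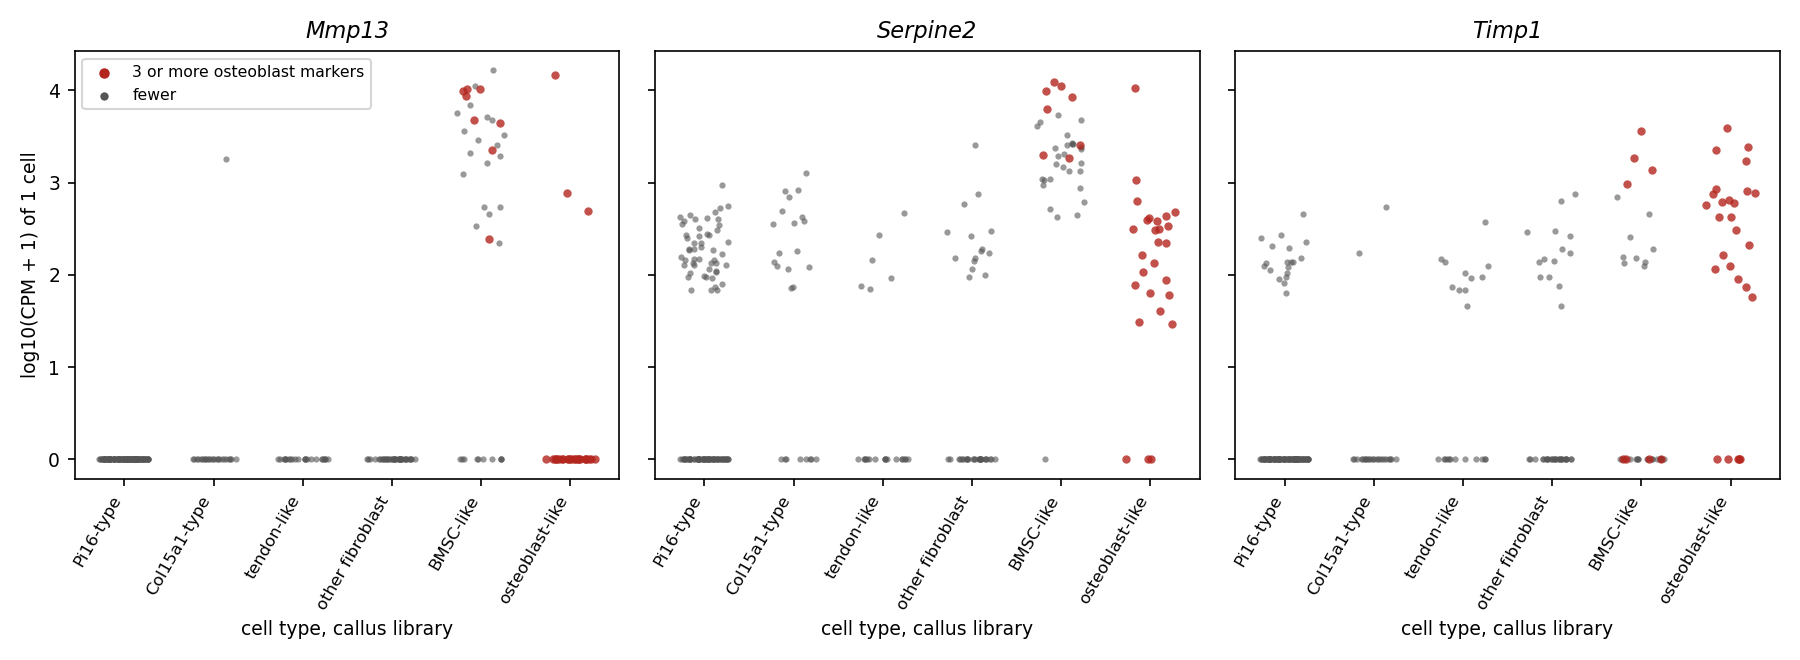
*Mmp13*, *Serpine2* and *Timp1* in single callus cells, as log10(CPM + 1), by stromal cell type, with cells that carry 3 or more of 6 osteoblast markers in red. BMSC-like cells reach 16538 CPM of *Mmp13* and 12443 CPM of *Serpine2*, while 1 *Col15a1*-type cell is the only fibroblast with *Mmp13*.

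Among the BMSC-like cells, 8 also carried at least 3 osteoblast markers. They held 122 of the 140 *Timp1* UMIs, at 1321 CPM (1097 to 1577) against 100 CPM (59.3 to 158) in the other 29 cells. Only 4 of the 8 cells and 9 of the 29 carried *Timp1*, and the top cells held 48, 44 and 22 UMIs. *Mmp13* was at 5976 CPM (5488 to 6496) in the 8 cells and 2858 CPM (2616 to 3116) in the 29, and *Serpine2* at 8293 CPM (7716 to 8901) and 1901 CPM (1705 to 2114). *Adamts1* went the other way, at 43.3 CPM (11.8 to 111) in the 8 cells and 384 CPM (298 to 485) in the 29. In the 29 cells alone, 2 members stayed at least 2-fold higher than in callus fibroblasts, *Mmp13* with a ratio of 125 (90.5 to 179) and *Serpine2* with 14.7 (12.4 to 17.5), while *Timp1* was at 1.84 (1.05 to 3.08), and 4 stayed lower. These counts have no share of all genes beside them. The 8 cells had a median of 8489 UMIs and the 29 a median of 6420, and whether some of the 8 are doublets was not tested.

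In osteoblast-like cells *Timp1* was at 518 CPM (462 to 579) in 22 of 27 cells. The summed level of BMSC-like cells was alike, at 514 CPM, but rested mostly on 4 of the 8 cells with osteoblast markers. The median over single cells was 421 CPM in osteoblast-like and 0 in BMSC-like cells. *Mmp13*, *Timp1* and *Serpine2* were at least 2-fold higher than in callus fibroblasts and the other 7 members were lower, against 5.72% and 42.3% of genes. *Mmp13* was at 369 CPM (322 to 421), but 1 cell, with 3 BMSC and 5 osteoblast markers, held 208 of its 220 UMIs and 150 of the 278 *Serpine2* UMIs. Without this cell, *Mmp13* (20.6 CPM, ratio 0.905, 0.431 to 1.76) and *Serpine2* (219.7 CPM, 1.70, 1.36 to 2.13) were within 2-fold of callus fibroblasts, and *Timp1* was the 1 member higher, at 8.76 (6.90 to 11.2). However, the callus fibroblasts here still included the *Col15a1*-type cell that held all 39 of their *Mmp13* UMIs. Without that cell they had 0, so the *Mmp13* ratio says nothing of the other fibroblasts. *Adamts1* (13.4 CPM) and *Adamts5* (45.3 CPM) were lowest here among the stromal types with at least 20 cells. Compared with osteoblast-like cells, BMSC-like cells had 6 of 9 members at least 2-fold higher (40.9% of genes) and *Mmp2* lower (ratio 0.324, 0.232 to 0.445, against 7.21%).

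Endothelial cells carried *Timp3* and *Adamts1* but no *Mmp2*. *Timp3* had 1220.1 CPM (982 to 1498) in the 28 intact cells and 798 CPM (719 to 884) in the 97 of the callus, next to the 1166 and 785 CPM of fibroblasts, and *Adamts1* at 241 CPM (143 to 381) and 361 CPM (308 to 420). *Mmp2* had 0 UMIs in both, which allows up to 40.2 and 6.49 CPM. Of the 4 members tested, 0 were 2-fold apart between the libraries, where 13% of genes were higher and 5.68% lower. Among the 4 mural cells *Timp3* was at 4745 CPM, but 1 cell held 75.8% of its UMIs.

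*Mmp14* and *Timp2* were also found in myeloid cells. *Mmp14* was at 476 CPM (405 to 556) in the 11 osteoclast-like cells, in 11 of 11 cells, next to the 461 CPM of callus fibroblasts. Callus macrophages had 68.6 CPM (53.5 to 86.5) in 33 of 131 cells, at least 3.59-fold higher than the 0 UMIs of 29 intact macrophages. This was 1 of the 2 members tested there, against 14.9% of genes, and 0 were lower, against 6.40%. *Timp2* was at 675 CPM (553 to 816) in the intact and 380 CPM (344 to 420) in the callus macrophages. In neutrophils it was at 169 CPM (150 to 188) and 80.1 CPM (72.6 to 88.1), a ratio of 0.475 (0.410 to 0.552), where 2.66% of genes were at least 2-fold lower in the callus. *Timp2* UMIs were found in 59.9% of intact and 41.7% of callus neutrophils, against 3.33% and 2.23% of B cells.

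*Serpine2* was also present in blood lineages, at 132 CPM (99.1 to 173) in callus basophils, mast cells and eosinophils, gated as 1 group of 31 cells. Callus myeloid progenitors had 27.4 CPM (24.4 to 30.6) in 139 of 389 cells at a median depth of 28100 UMIs. In neutrophils it was at 6.98 CPM (3.72 to 11.9) in the intact and 20.1 CPM (16.5 to 24.4) in the callus library, a ratio of 2.88 (1.62 to 5.59), where 22.1% of genes were at least 2-fold higher. However, 1 callus neutrophil held 36 of the 105 UMIs, and without it the ratio was 1.90 (1.04 to 3.75). B cells had 0 and 3 UMIs.

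Other genes of the same system were counted over fixed lists, callus over intact fibroblasts, beside 4.53% of all genes at least 2-fold higher and 2.82% lower. Of 5 other metalloproteinase genes with enough UMIs, *Mmp16* was higher, at 7.88 and 29.8 CPM (ratio 3.78, 2.12 to 7.10), and 0 were lower. *Mmp23* (132 and 119 CPM) and *Mmp19* (23.2 and 28.6 CPM), the most abundant others, were within 2-fold. Of 9 other ADAMTS genes 3 were higher and 0 lower, among them the aggrecanase gene *Adamts4* at 13.8 and 36.2 CPM (ratio 2.62, 1.65 to 4.26) and *Adamts19* at 7.88 and 19.9 CPM (2.52, 1.35 to 4.89). The most abundant ones, *Adamts2*, which trims procollagens (332.5 and 335 CPM), and *Adamts12* (86.7 and 66.0 CPM), were within 2-fold. Of 9 other protease inhibitor genes 0 were 2-fold apart, with *Serping1* at 1248 and 1332 CPM and *Serpinf1* at 1029 and 1113 CPM.

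In the plasminogen system 1 of 6 genes was higher, the thrombin receptor gene *F2r* at 6.90 and 32.7 CPM (ratio 4.74, 2.61 to 9.22). *Plat*, the tissue plasminogen activator gene, was at 251 and 247 CPM and *Lrp1*, an endocytic receptor for protease and inhibitor complexes, at 914 and 830 CPM. Of 5 activators and cofactors the hyaluronan receptor gene *Cd44* was higher, at 53.2 and 117 CPM (ratio 2.20, 1.73 to 2.80), with *Pcsk6* at 548 and 384 CPM and *Bsg* at 278 and 313 CPM within 2-fold. Among 10 substrates the proteoglycan gene *Bgn* was at 195 and 854 CPM (ratio 4.38, 3.91 to 4.90), and *Acan* went from 0 to 52 UMIs, all in 1 tendon-like cell. *Col3a1* was at 6751 and 12810 CPM, a ratio of 1.90 (1.86 to 1.94), and *Dcn* at 8785 and 10833 CPM. Of 12 cathepsins and other proteases 2 were higher, among them *Ctsk* at 139 and 405 CPM (ratio 2.90, 2.52 to 3.35), while *Ctsl* was at 1145 and 766 CPM and *Htra3* at 491 and 469 CPM.

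The dissociation list had 0 of 17 genes 2-fold apart between the libraries in fibroblasts, with *Fos* at 4703 and 5293 CPM and *Jun* at 3058 and 2947 CPM. The inflammatory list had 2 of 14 lower, the chemokine genes *Ccl2* (278 and 71.2 CPM, ratio 0.256, 0.209 to 0.312) and *Cxcl2* (45.8 and 19.3 CPM, ratio 0.421). *Nfkbia* was at 589 and 427 CPM and *Cebpd* at 1092 and 764 CPM. The summed level of the dissociation list in fibroblasts was 24773 CPM in the intact and 23250 CPM in the callus library, and that of the inflammatory list 4076 and 2865 CPM.

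The genes whose level followed each member most closely over 29 cell type and library groups of at least 20 cells were, by Pearson r of log2(CPM + 10), *Dcn* and *Lum* for *Mmp2* (0.991 and 0.990), *Pthlh* and *Itgbl1* for *Mmp3* (0.945 and 0.934) and *Pard3b* and *Ccdc80* for *Mmp14* (0.957 and 0.955). For *Timp1* they were *Pth1r* and *Cdh11* (0.970 and 0.969), for *Timp2* *Basp1* and *Rnase4* (0.951 and 0.93) and for *Timp3* *Cavin3* and *Lamb2* (0.991 and 0.980). *Adamts1* was most like *Map1b* and *Parva* (0.991 and 0.988), *Adamts5* like *Mill2* and *Sgce* (0.978 and 0.977) and *Serpine2* like *Ptprd* and *Fat1* (0.899 and 0.895). *Mmp13*, with 39 UMIs in fibroblasts, was below the 50 UMIs the rule needs. *Dcn* and *Lum* are among the 8 marker genes of the fibroblast gate, so their r with *Mmp2* is in part set by the gating. The groups share 2 libraries and their depth, so these values are a description only.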

How the data were processed

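The authors deposited UMI counts per gene and cell barcode for both 10x 3′ v3 libraries, made with Cell Ranger (6.0.0 per the file headers) on mm10 per the labels. The counts were used as deposited. Cells with fewer than 500 genes or over 10% mitochondrial UMIs were left out, which kept 4502 cells, and cell types were gated on the number of marker genes with a UMI, since no annotation of cells was used here. A cell was a fibroblast with 5 of 8 markers, BMSC-like with 4 of 6 and osteoblast-like with 3 of 6.

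UMIs were summed per type and library and scaled to CPM, with exact Poisson intervals. Shares of cells have Clopper-Pearson intervals and ratios exact conditional ones. A ratio was called past 2-fold with at least 20 UMIs over both groups, and 0 UMIs were set at a limit of 3 counts. For shares compared across depths, cells were thinned to 2000 UMIs. Each condition is 1 library of 3 pooled mice, so no p-values were computed. All 10 members were named, and from each pathway list the 2 genes with the highest fibroblast level and those past 2-fold between the libraries with at least 50 fibroblast UMIs. For each member with at least 50 fibroblast UMIs, the 2 genes of highest Pearson r were taken among those with at least 100 UMIs, over groups of at least 20 cells.

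The members and lists were chosen with earlier results of these data known. Alternatives were other cell filters, Leiden clusters in place of gates, removal of the highest Scrublet scores, other weights, scales, minimums and thinning depths. Leaving out single cells that held much of a member, and splitting the BMSC-like cells by osteoblast markers, were chosen after seeing the data. Counts of members made in these ways have no share of all genes beside them. The scripts were tested on simulated data, and used Python 3.11.15, numpy 2.4.6, scipy 1.17.1, pandas 2.3.3, scanpy 1.11.5 and igraph 0.11.9. Promoter windows are from RefSeq (GRCm38.p6).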

Additional observations from a re-analysis of the deposited data

How the results depend on the processing

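Counts of members past 2-fold were compared for all fibroblasts between libraries, fibroblasts over blood cells, *Col15a1*- over *Pi16*-type and *Ptx3*-high over *Ptx3*-low cells. The count of members highest outside the blood types was compared as well. Not every alternative was applied to each, and other scales and minimums only to all fibroblasts between libraries. Counts for BMSC-like, osteoblast-like and tendon-like cells, and between libraries within single types, were not among them. Of the compared counts, 72 stayed within 1.5 times the reported count and 2 moved. A count can stay while its members change. *Timp1*, for one, was called lower in callus *Col15a1*- than *Pi16*-type cells without the single *Mmp13* cell, and higher under Leiden clusters. Of the levels in CPM 107 lay outside the interval of the reported value and 353 inside it, of the shares of cells 53 and 47, and of the log2 ratios 10 and 106. Both counts that moved came from Leiden clusters in place of gates, where *Ptx3*-high over *Ptx3*-low cells had 2 members past 2-fold in the intact library (*Adamts1* and *Serpine2*) and 4 in the callus (with *Mmp3* and *Timp1* as well), against 1 each. The cause was not tested. *Mmp13* left the list of members higher in callus fibroblasts, which then held 3, when the top cell per member and group, the highest Scrublet scores or the single *Mmp13* cell were left out, or when 50 UMIs were needed. Under Leiden clusters *Timp3* was no longer past 2-fold between *Col15a1*- and *Pi16*-type intact cells, nor *Serpine2* between those of the callus. The cluster named *Col15a1*-type held 178 cells, of which 36.5% passed that gate, so it is a wider set of cells than the gated one. The groups with the highest *Mmp2*, *Mmp3*, *Mmp14*, *Timp1* and *Adamts1* also changed. For all of these but *Timp1* the change was fixed by the naming. Their highest groups as gated were tendon-like cells or fibroblasts that fitted no list, and no cluster was named after either. *Timp1* was also highest in BMSC-like rather than osteoblast-like cells under a stricter filter (1000 genes, 5% mitochondrial UMIs). No paired analysis was possible because each condition is a single library. Depth limits the types with few cells most, such as the 28 intact endothelial cells, where 0 UMIs allow up to 40.2 CPM.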
